A study of Homo sapiens with 12 samples.

Results

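Expression was examined for 43 genes whose products segregate chromosomes and divide the cell: subunits of the kinetochore, the chromosomal passenger complex, the condensins and the spindle, regulators of the checkpoint and of anaphase, and cytokinesis factors. The genes were taken by name from a list drawn up with earlier results of these data known. Each was read from the probe set with the highest mean among its probe sets with 1 gene symbol. Of these, 42 were measured among 11963 genes. ANLN, a scaffold of the cleavage furrow, had no such probe set, so its expression was not analysed and it enters only the promoter search. The samples were 12 arrays from 2 established human prostate cancer cell lines, 22RV1, which was grown out of a xenograft, and LnCaP, which came from a lymph node metastasis. Each line was either left untreated or kept for 24 h in 100 µM nicotine, given as nicotine tartrate, with 3 replicates in each of the 4 groups. No vehicle is named for the untreated cells. Nothing says whether replicates were separate cultures, so p-values reflect array-to-array spread that may be technical.

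Before a cell divides, its kinetochores assemble on centromeres marked by the histone variant CENP-A, and the outer kinetochore grips spindle microtubules. Condensin compacts the chromosomes, the spindle checkpoint holds back the anaphase-promoting complex until all chromosomes are attached, and separase then frees the sister chromatids before the central spindle directs cytokinesis. Transcripts of most of these genes are low in resting cells and peak in G2 and mitosis, so their level in a culture depends in part on how many of its cells divide. In RNA from whole cultures, fewer dividing cells and less RNA per dividing cell cannot be told apart.

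All values are log2 expression values as deposited, and array medians lay between 6.61 and 6.71. Of the markers of prostate epithelium, all 8 that were measured had means above the median gene level of 7.20 in both lines, among them KLK3, the gene of prostate-specific antigen (8.77 in 22RV1 and 12.94 in LnCaP). None of the 5 leukocyte markers did, nor did the endothelial markers but for VWF in LnCaP or the fibroblast markers but for COL1A1. The 4 arrays numbered 3 stood apart within their groups: they account for 48.0% of the residual sum of squares over all genes, and for 40.6% of it over the 42 genes. The counts called in LnCaP and for the average of both lines, and the median in 22RV1, are given with and without them. Counts of pairs and overlaps, and calls with the replicate block described next, were not repeated without them. Same-numbered arrays deviated together within a line, so a limma fit with the replicate number as a block is given beside the limma fit without it. The correlation of their deviations was highest for number 3 (r = 0.640 in 22RV1 and 0.599 in LnCaP). In LnCaP, untreated replicate 2 had r = 0.225 with treated replicate 2 and 0.270 with treated replicate 1. Counts with the block therefore rest on a pairing that is less settled in LnCaP. Below, a gene is said to fall or rise only where limma called it at an adjusted p under 0.05. Genes not said to fall can still have negative log2 fold changes.

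Many genes of mitosis carry a short promoter element called CHR near their start, often beside CCAAT boxes, and are held down in resting cells by the DREAM complex. RefSeq promoter windows (GRCh38.p14, 250 bases before to 50 bases from the start) were matched for 37 of the 43 genes, in 43 windows. BIRC5, UBE2C, PIMREG, TPX2, CENPM and RACGAP1 were not matched. The windows were searched on both strands for TTTGAA, the commonest form of the CHR, which reads TTCAAA on the other strand, and for CCAAT, which reads ATTGG. The promoters below are those of 6 genes that fell in LnCaP and of CDC20, shown because each holds TTTGAA in the printed stretch and together they span the functional parts. Each runs 5′ to 3′ from 100 bases before the start to 30 bases from it, with matches to either motif in capitals.
CENPN, chr16:81007114-81007243, plus strand: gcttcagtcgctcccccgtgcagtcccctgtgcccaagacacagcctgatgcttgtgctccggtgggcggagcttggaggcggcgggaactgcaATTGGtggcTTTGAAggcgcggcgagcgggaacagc
CDCA8, chr1:37692416-37692545, plus strand: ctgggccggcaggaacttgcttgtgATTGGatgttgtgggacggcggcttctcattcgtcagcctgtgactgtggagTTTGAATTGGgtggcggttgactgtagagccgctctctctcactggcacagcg
CDC20, chr1:43358881-43359010, plus strand: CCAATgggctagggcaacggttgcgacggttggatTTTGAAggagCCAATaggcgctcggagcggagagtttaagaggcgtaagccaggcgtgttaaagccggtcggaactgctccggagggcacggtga
NCAPG, chr4:17810879-17811008, plus strand: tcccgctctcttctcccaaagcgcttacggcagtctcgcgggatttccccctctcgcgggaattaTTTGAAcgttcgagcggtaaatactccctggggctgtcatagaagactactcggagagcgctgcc
MKI67, chr10:128126394-128126523, minus strand: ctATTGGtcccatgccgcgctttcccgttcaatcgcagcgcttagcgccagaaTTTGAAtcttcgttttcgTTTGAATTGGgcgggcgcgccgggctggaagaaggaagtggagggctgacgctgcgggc
SPAG5, chr17:28598996-28599125, minus strand: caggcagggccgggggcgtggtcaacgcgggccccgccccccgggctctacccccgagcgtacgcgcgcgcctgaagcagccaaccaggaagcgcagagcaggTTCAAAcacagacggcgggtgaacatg
PRC1, chr15:90994506-90994635, minus strand: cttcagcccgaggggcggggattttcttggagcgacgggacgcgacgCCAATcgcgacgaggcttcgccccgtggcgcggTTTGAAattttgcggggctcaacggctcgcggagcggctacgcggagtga

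TTTGAA began 23 bases before the start in CDCA8, 20 bases before it in PRC1, 35 bases before it in NCAPG, 65 bases before it in CDC20, and 3 bases after it in CENPN and, on the other strand, in SPAG5. CDCA8 and MKI67 share the run TTTGAATTGG, in which TTTGAA and the reverse CCAAT motif overlap by a base. That TTTGAA begins 29 bases before the start of MKI67, which holds a further match 47 bases before it. Over all 43 windows of these genes, 24 (55.8%) held TTTGAA on either strand within 50 bases of the start, against 4.62% of the 35116 windows of all genes and 3.36% of the 14058 windows of genes measured here. CCAAT was found in the same stretch in 15 windows (34.9%), against 10.7% of all windows and 9.43% of those of measured genes. Over the whole window the shares were 69.8% and 15.2% for TTTGAA, and 65.1% and 34.6% for CCAAT. CENPI, CKAP2, TACC3 and TRIP13 held neither motif, which says only that these letters are not in those windows. A match describes the sequence and is not evidence of binding, and both motifs are short enough to occur in many promoters.

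Nicotine was followed in LnCaP by lower values of nearly all of these genes. All 42 had negative log2 fold changes, with a median of -0.61 against 0.00 over all genes, and 50.4% of all genes were negative. The fall passed the test for 18 of the 42 and none rose, whereas limma called 0.585% of all genes lower at an adjusted p under 0.05. The treated arrays all lay below the untreated arrays for 39 of the 42, against 10.1% of all genes. With the replicate block, limma called 37 lower, including the 18, against 3.28% of all genes. The 42 genes were listed with earlier results of these data known, so these shares describe them and do not test the set. The 5 not called with the block were CENPM, INCENP, GTSE1, CKAP2 and STIL. The count of 18 was 0 without LnCaP untreated replicate 1, without untreated replicate 3 or without treated replicate 2, 9 without treated replicate 1, 10 after subtraction of array medians and 0 when the 6 LnCaP arrays were fitted on their own. It was again 18 without the arrays numbered 3, of which 15 were the same genes, and the median log2 fold change stayed between -0.65 and -0.53 whichever array was left out.

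**Figure D1:**
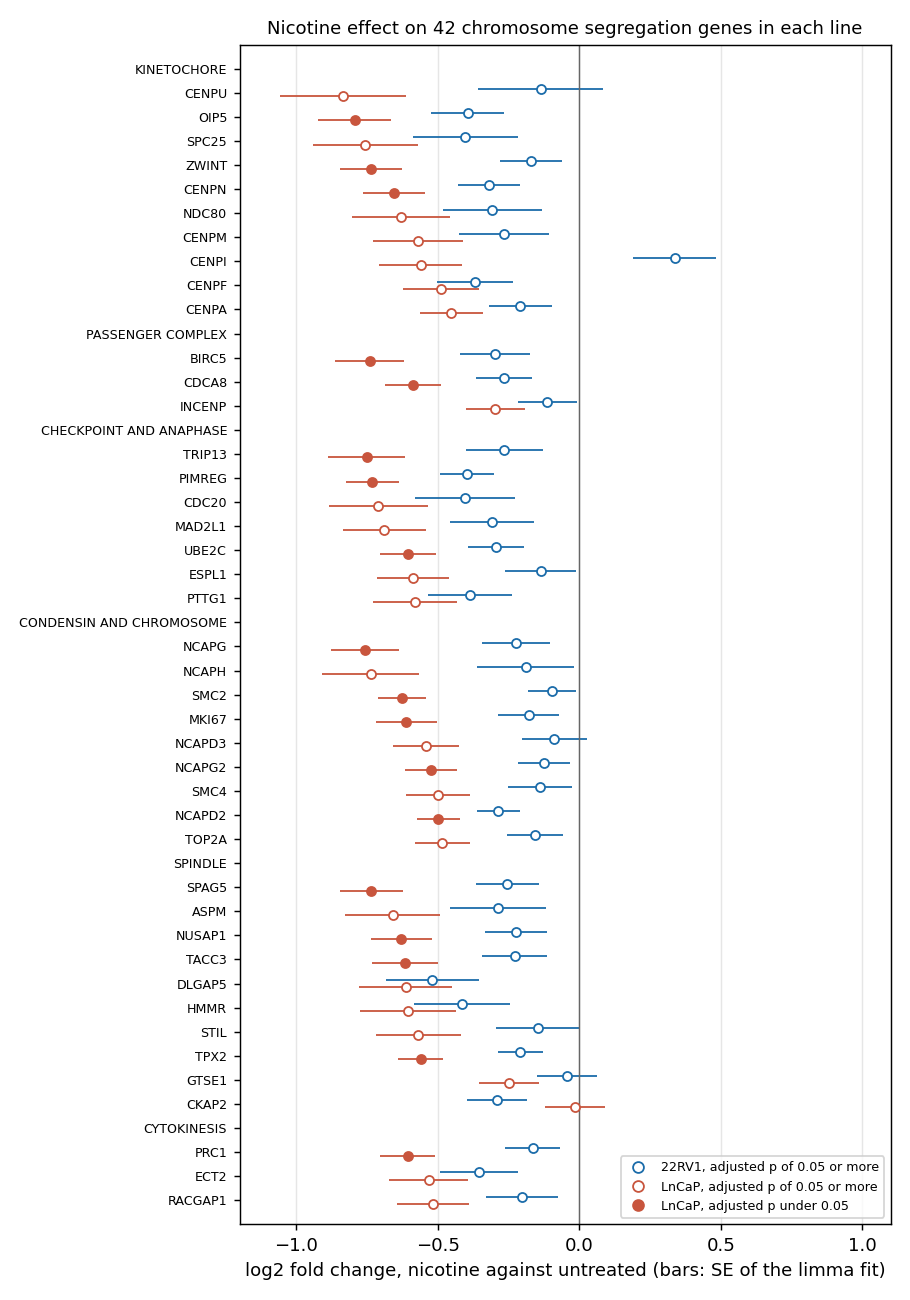
Log2 fold changes after nicotine (x axis, log2 units) with the SE of the limma fit for the 42 genes, grouped by function, in 22RV1 and LnCaP (n = 3 per group). All LnCaP values lie below 0 and 18 are filled because they passed an adjusted p of 0.05. The 22RV1 values lie to the right of the LnCaP values except for CKAP2 (-0.29 in 22RV1 and -0.02 in LnCaP), and that of CENPI lies above 0 at 0.34.

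At the kinetochore, all 10 genes had negative log2 fold changes in LnCaP. The fall passed the test for 3 of them, and for 9 with the replicate block. ZWINT, which links the outer kinetochore to the proteins that recruit the checkpoint (probe set 204026_s_at), read 11.36, 11.10 and 11.33 on the untreated LnCaP arrays and 10.67, 10.36 and 10.55 on the treated ones. The treated arrays lay clear below the untreated ones, and the fall was 0.74 ± 0.11 (SE, n = 3 per group, limma adjusted p = 0.0200), which is 1.67-fold lower. OIP5, a subunit of the complex that prepares centromeres for new CENP-A (probe set 213599_at), read 9.17, 9.10 and 9.40 untreated and 8.44, 8.25 and 8.60 treated. It fell by 0.79 ± 0.13 (adjusted p = 0.0233), again with no overlap. CENPN, which binds CENP-A nucleosomes (probe set 219555_s_at, promoter above), read 10.60, 10.58 and 10.81 untreated and 10.01, 9.86 and 10.15 treated. Its fall was 0.66 ± 0.11 (adjusted p = 0.0233), and its groups did not overlap.

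The inner kinetochore gene CENPU had the lowest fold change in LnCaP, -0.84 ± 0.22, but did not pass (adjusted p = 0.111). Its untreated arrays read 10.66, 9.90 and 10.61 and its treated arrays 9.51, 9.17 and 9.98. Untreated replicate 2, at 9.90, lay below treated replicate 3, at 9.98, so the groups overlapped. Within same-numbered pairs its differences were -1.15, -0.73 and -0.63, and it fell with the replicate block (adjusted p = 0.00871). CENPA, the gene of the centromeric histone itself, was at -0.45 (adjusted p = 0.0889, and 0.0248 with the block), reading 8.18, 8.49 and 8.50 untreated and 8.00, 7.94 and 7.87 treated. The microtubule-binding NDC80 complex subunits NDC80 and SPC25 were at -0.63 and -0.76, and the kinetochore proteins CENPF and CENPM at -0.49 and -0.57, none of them past the threshold without the block. With it NDC80, SPC25 and CENPF fell, and CENPM had an adjusted p of 0.0517.

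CENPI, another inner kinetochore subunit, had values of opposite sign in the lines. In LnCaP it read 6.93, 6.64 and 6.87 untreated and 6.31, 6.04 and 6.41 treated, a log2 fold change of -0.56 (adjusted p = 0.107, and 0.00885 with the block). In 22RV1 it read 5.67, 5.87 and 6.23 untreated and 6.13, 6.25 and 6.40 treated, a log2 fold change of 0.34 (adjusted p = 0.921). It was higher in all 3 same-numbered 22RV1 pairs and lower in all 3 LnCaP pairs. Its effect in LnCaP minus that in 22RV1 was -0.90 ± 0.21 (adjusted p = 0.659), and it passed with the replicate block (adjusted p = 0.0426). A second, dimmer probe set of CENPI gave log2 fold changes of -0.03 in 22RV1 and -0.51 in LnCaP. The probe sets of this gene therefore disagreed in 22RV1, and the mean levels of both lay below the median gene level.

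In the chromosomal passenger complex, which corrects faulty attachments, BIRC5 and CDCA8 fell in LnCaP and the scaffold subunit INCENP did not pass. BIRC5, which encodes survivin (probe set 202095_s_at), read 10.28, 10.33 and 10.49 untreated and 9.74, 9.54 and 9.60 treated, a fall of 0.74 ± 0.12 (adjusted p = 0.0233). CDCA8, which encodes borealin (probe set 221520_s_at), read 9.04, 9.00 and 9.19 untreated and 8.55, 8.40 and 8.51 treated, a fall of 0.59 ± 0.10 (adjusted p = 0.0233). For both genes the treated arrays lay below all untreated arrays. INCENP read 6.95, 7.24 and 7.28 untreated and 6.97, 6.77 and 6.83 treated, so its groups overlapped, with a log2 fold change of -0.30 ± 0.10 (adjusted p = 0.242), with an adjusted p of 0.131 with the block. The 2 other probe sets of BIRC5 were at -0.75 and -0.84.

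Of the 7 checkpoint and anaphase genes, 3 fell in LnCaP, 7 fell with the block and the groups did not overlap for any of the 7. PIMREG, a regulator of the step from metaphase to anaphase (probe set 221591_s_at), read 8.94, 8.94 and 9.15 untreated and 8.21, 8.27 and 8.36 treated. It fell by 0.73 ± 0.09 (adjusted p = 0.0192). UBE2C, the ubiquitin-conjugating enzyme of the anaphase-promoting complex (probe set 202954_at), read 10.41, 10.40 and 10.47 untreated and 9.80, 9.74 and 9.92 treated, a fall of 0.61 ± 0.10 (adjusted p = 0.0233). TRIP13, the ATPase that takes the checkpoint protein MAD2 apart from its partners (probe set 204033_at), read 9.65, 9.20 and 9.51 and then 8.63, 8.59 and 8.88. Its fall was 0.75 ± 0.13 (adjusted p = 0.0314).

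CDC20, the activator of the anaphase-promoting complex, was at -0.71 (adjusted p = 0.0923, and 0.0122 with the block), and MAD2L1, the gene of MAD2 itself, at -0.69 (0.0618 and 0.0171). Securin and separase, the inhibitor and the protease that cuts cohesin, are encoded by PTTG1 and ESPL1. PTTG1 read 11.21, 11.72 and 11.79 untreated and 11.06, 10.91 and 11.01 treated, a log2 fold change of -0.58 (adjusted p = 0.102, and 0.0300 with the block). Its differences in the LnCaP pairs were uneven, at -0.15, -0.81 and -0.78. ESPL1 read 8.43, 8.11 and 8.26 untreated and 7.66, 7.50 and 7.88 treated, a log2 fold change of -0.59 (adjusted p = 0.0612, and 0.0187 with the block).

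**Figure D2:**
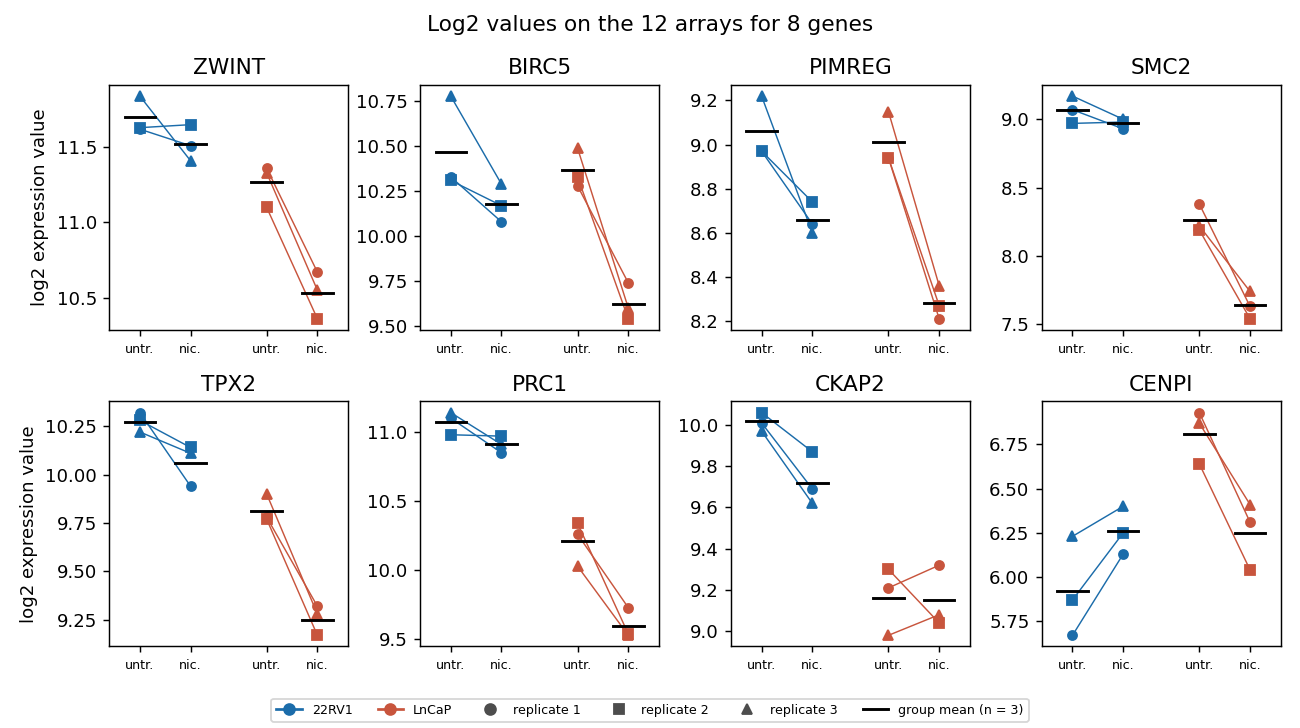
Log2 expression values (y axis) of 8 genes on the 12 arrays, with lines joining same-numbered untreated (untr.) and nicotine (nic.) arrays and black bars at the means of 3 arrays. ZWINT, BIRC5, PIMREG, SMC2, TPX2 and PRC1 are lower in all 3 LnCaP pairs, CKAP2 is not, and CENPI is higher in the 3 pairs of 22RV1 and lower in the 3 of LnCaP.

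Among the condensin and chromosome genes, 5 of 9 fell in LnCaP, 9 fell with the block, and the treated and untreated arrays did not overlap for any of the 9. SMC2, an ATPase of both condensins (probe set 204240_s_at), read 8.38, 8.19 and 8.22 untreated and 7.63, 7.54 and 7.74 treated. It fell by 0.63 ± 0.08 (adjusted p = 0.0192), or 1.54-fold. In 22RV1 SMC2 read 9.07, 8.97 and 9.17 untreated and 8.93, 8.98 and 9.00 treated, a log2 fold change of -0.10 (adjusted p = 0.992), with overlap. The effects differed by -0.53 ± 0.12, the smallest p-value for a difference between the lines among the 42 genes, but this did not pass (adjusted p = 0.646, and 0.116 with the block).

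The condensin I subunits NCAPG, NCAPD2 and NCAPH and the condensin II subunits NCAPG2 and NCAPD3 lay between -0.76 and -0.50. NCAPG (probe set 218662_s_at) read 8.02, 7.83 and 7.99 untreated and 7.32, 7.03 and 7.21 treated, with a fall of 0.76 ± 0.12 (adjusted p = 0.0232). NCAPD2 (probe set 201774_s_at) read 8.72, 8.74 and 8.83 untreated and 8.32, 8.25 and 8.23 treated, a fall of 0.50 ± 0.08 (adjusted p = 0.0227). NCAPG2 fell by 0.52 ± 0.09 (adjusted p = 0.0277). NCAPD3 at -0.54, NCAPH at -0.74 and SMC4, the partner ATPase of SMC2, at -0.50 did not pass without the block. NCAPH2, a further condensin II subunit that is not among the 42 genes, was at -0.33 (adjusted p = 0.198, and 0.0973 with the block). Without the block neither complex was called in every subunit, and with it SMC2, SMC4, NCAPD2, NCAPG and NCAPH of condensin I all fell. TOP2A, the topoisomerase that untangles sister chromatids, read 8.91, 8.92 and 8.70 untreated and 8.50, 8.26 and 8.33 treated, and at -0.48 it lay just outside the threshold (adjusted p = 0.0501). MKI67, the gene of the Ki-67 protein that coats mitotic chromosomes, fell by 0.61 ± 0.11 (adjusted p = 0.0277), and its 4 probe sets lay between -0.80 and -0.55 in LnCaP.

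Of the 10 spindle genes, 4 fell in LnCaP and 7 fell with the block. TPX2, which activates the kinase Aurora A on the spindle (probe set 210052_s_at), read 9.78, 9.77 and 9.90 untreated and 9.32, 9.17 and 9.28 treated, a fall of 0.56 ± 0.08 (adjusted p = 0.0200). SPAG5, or astrin, which steadies attached kinetochores (probe set 203145_at, promoter above), read 8.69, 8.65 and 8.85 untreated and 8.11, 7.94 and 7.93 treated, a fall of 0.73 ± 0.11 (adjusted p = 0.0200). The arrays of both genes separated by treatment in LnCaP. The other calls were NUSAP1, a microtubule bundler, at -0.63 (adjusted p = 0.0265), and TACC3, which cross-links fibres of the spindle, at -0.62 (adjusted p = 0.0394). ASPM, which focuses spindle poles, was at -0.66, DLGAP5 at -0.61, the hyaluronan-mediated motility gene HMMR at -0.61 and the centriole assembly gene STIL at -0.57. None of these passed without the block, and with it ASPM, DLGAP5 and HMMR fell while STIL had an adjusted p of 0.0697.

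CKAP2, a microtubule-stabilising protein, was the exception among the spindle genes. It read 9.21, 9.30 and 8.98 on untreated and 9.32, 9.04 and 9.08 on treated LnCaP arrays, a log2 fold change of -0.02 ± 0.11 (adjusted p = 0.985), and its groups overlapped. The sign turned when LnCaP untreated replicate 1 or 2 or treated replicate 2 or 3 was left out, and under quantile normalization. In 22RV1 it read 10.01, 10.06 and 9.97 untreated and 9.69, 9.87 and 9.62 treated, with no overlap and a log2 fold change of -0.29 (adjusted p = 0.879). Of the 42 genes it was the one with a higher effect in LnCaP than in 22RV1, by 0.28 ± 0.15 (adjusted p = 0.829), so the difference itself did not pass. GTSE1, a microtubule-binding protein, was at -0.25 in LnCaP by its brightest probe set, and its 3 other probe sets were at -0.38, -0.67 and -0.73.

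Of the 3 cytokinesis genes measured, PRC1 fell in LnCaP and all 3 fell with the block. PRC1, the bundler of the central spindle (probe set 218009_s_at), read 10.26, 10.34 and 10.03 untreated and 9.73, 9.54 and 9.53 treated, a fall of 0.61 ± 0.10 (adjusted p = 0.0232). RACGAP1, the centralspindlin subunit that recruits ECT2, read 9.93, 10.14 and 9.72 untreated and 9.67, 9.28 and 9.28 treated, a log2 fold change of -0.52 (adjusted p = 0.0889, and 0.0305 with the block). ECT2, the exchange factor that switches on RhoA for the furrow, was at -0.53 (adjusted p = 0.103, and 0.0428 with the block). The treated arrays lay below the untreated arrays for all 3 genes, but the pair differences were uneven, with medians of -0.26, -0.86 and -0.44 in LnCaP pairs 1, 2 and 3.

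The functional parts overlapped in the size of their log2 fold changes in LnCaP. Their median log2 fold changes were -0.69 for checkpoint and anaphase genes, -0.64 for kinetochore genes, -0.61 for spindle genes, -0.59 for the passenger complex, -0.54 for condensin and chromosome genes and -0.53 for cytokinesis genes. The ranges overlapped: kinetochore genes ran from -0.84 to -0.45, condensin and chromosome genes from -0.76 to -0.48 and spindle genes from -0.73 to -0.02. In 22RV1 the medians were -0.31 for checkpoint and anaphase genes, -0.29 for the kinetochore, -0.26 for the passenger complex, -0.24 for the spindle, -0.20 for cytokinesis and -0.16 for condensin and chromosome genes. These are descriptions, since genes on the same arrays are not replicates, and no difference between parts was tested.

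By same-numbered pairs, the median over the 42 genes was -0.53, -0.71 and -0.56 in LnCaP pairs 1, 2 and 3, and -0.27, -0.12 and -0.36 in 22RV1. In LnCaP 40, 42 and 41 genes were lower in the treated array of the pair, and 40 were lower in all 3 pairs, against 21.8% of all genes. In 22RV1 the numbers were 40, 30 and 40, and 29 were lower in all 3 pairs, against 18.4% of all genes. Over both lines, 27 genes were lower in 6 of 6 pairs, against 5.96% of all genes. The 22RV1 pair 2 held the smallest shift, and there 4 of the 9 condensin and chromosome genes were lower, with a median of 0.01. LnCaP treated replicate 2 was the lowest of its group, with 4 of 42 genes above their group means, and 22RV1 untreated replicate 3 was the highest of its group, with 36 of 42 above.

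**Figure D3:**
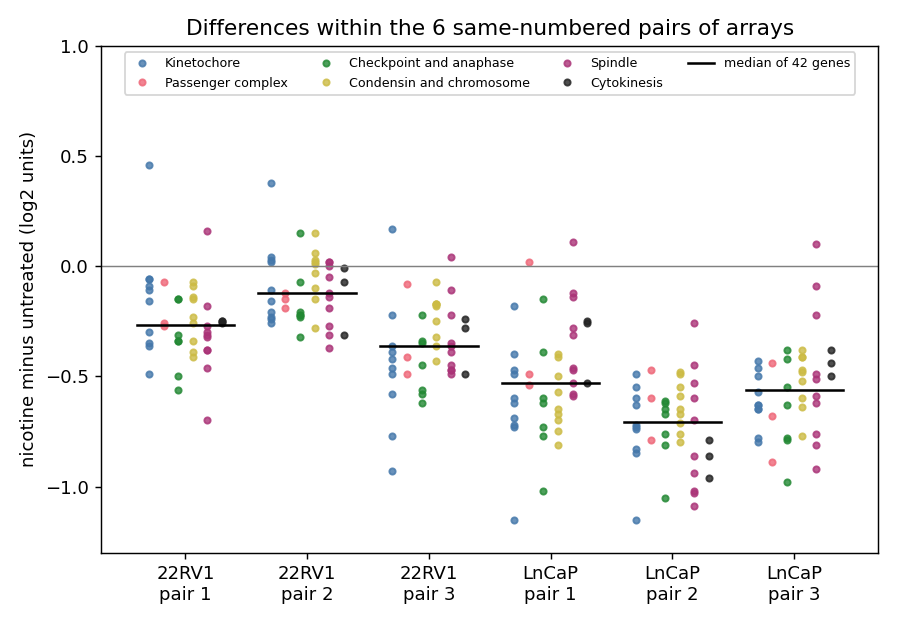
Difference of the nicotine and the untreated array of the same number (y axis, log2 units) for each of the 42 genes in the 6 pairs, coloured by function, with black lines at the medians. The medians are -0.27, -0.12 and -0.36 in 22RV1 and -0.53, -0.71 and -0.56 in LnCaP.

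In 22RV1 the values lay lower too, but no gene passed. Of the 42 genes, 41 had negative log2 fold changes, CENPI being the exception, with a median of -0.24, against 52.3% negative among all genes. Limma called 0 of them and 0.0% of all genes, and 17 had an unadjusted p under 0.05, against 5.29% of all genes. With the block it also called 0, with 24 at an unadjusted p under 0.05, against 11.3% of all genes in that fit. The treated arrays lay below all untreated arrays for 23 genes, against 6.47% of all genes. The smallest adjusted p was that of PIMREG, which read 8.97, 8.97 and 9.22 untreated and 8.64, 8.74 and 8.60 treated, a log2 fold change of -0.40 ± 0.09 (adjusted p = 0.595).

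Among the larger 22RV1 shifts was that of DLGAP5, a kinetochore-fibre stabiliser, which read 8.55, 8.54 and 8.90 untreated and 7.85, 8.18 and 8.41 treated. Its log2 fold change was -0.52 ± 0.16 (adjusted p = 0.879), beside -0.61 in LnCaP. BIRC5 read 10.33, 10.31 and 10.78 untreated and 10.08, 10.17 and 10.29 treated, and here untreated replicate 3, at 10.78, stood above the rest. TPX2 read 10.32, 10.28 and 10.22 untreated and 9.94, 10.14 and 10.11 treated, without overlap and with a log2 fold change of -0.21. PRC1, by contrast, read 11.10, 10.98 and 11.14 untreated and 10.85, 10.97 and 10.91 treated, a log2 fold change of -0.17, with groups that were separated only narrowly. Without 22RV1 untreated replicate 3 the median over the 42 genes was -0.16, and without the arrays numbered 3 it was -0.17.

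Averaged over both lines, 15 of the 42 genes fell, all of them among the 18 called in LnCaP, against 0.293% of all genes called lower. A call for the average does not show an effect in each line, and none of the 42 genes was called in 22RV1. PIMREG had the smallest adjusted p for the average, with a fall of 0.56 ± 0.07 (adjusted p = 0.0144). SMC2, TPX2 and PRC1 were at -0.36, -0.38 and -0.39 (adjusted p = 0.0347, 0.0301 and 0.0366), and CDCA8 was at -0.43 (0.0343). MKI67, NCAPG2 and TACC3 were called in LnCaP and not for the average. With the replicate block 36 of the 42 fell, against 2.03% of all genes. The count of 15 was 2 without the arrays numbered 3 and 3 after subtraction of array medians. It was 0 without 22RV1 untreated replicate 3, 22RV1 treated replicate 1 or LnCaP treated replicate 2, 13 without LnCaP untreated replicate 2, and between 1 and 9 without any other single array.

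The log2 fold change was lower in LnCaP than in 22RV1 for 41 of the 42 genes, with a median difference of -0.36, whereas 49.9% of all genes had a lower effect in LnCaP. Limma called 0 of these differences, and 0.0% over all genes, with 23 of the 42 at an unadjusted p under 0.05 against 6.26% of all genes. Condensin and chromosome genes made up 8 of those 23. With the block CENPI passed, against 0.159% of all genes. ZWINT, with a difference of -0.57 ± 0.16 (adjusted p = 0.678), was among the 3 smallest p-values, and in 22RV1 it read 11.62, 11.63 and 11.84 untreated and 11.51, 11.65 and 11.41 treated, with overlap. Without the block the lines were not shown to differ for any of these genes, and a p that misses the threshold does not show that they responded alike.

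Before treatment the lines already differed in these genes. Limma called 21 of the 42 lower and 2 higher in untreated LnCaP than in untreated 22RV1, against 22.4% lower and 25.4% higher among all genes. The untreated arrays of LnCaP lay below all those of 22RV1 for 26 genes, against 25.0% of all genes, and above them for 1, CENPI, against 30.6%. The shares among the 42 genes were thus above the background for lower calls and below it for higher calls. ASPM showed the largest gap: it read 10.36, 10.50 and 10.46 in 22RV1 and 7.78, 8.14 and 7.71 in LnCaP, 5.92-fold lower, a log2 difference of -2.56 ± 0.17 (adjusted p = 1.31e-07). Next came ESPL1, at 9.66, 9.53 and 9.73 in 22RV1 and 8.43, 8.11 and 8.26 in LnCaP, a log2 difference of -1.37 ± 0.13 (adjusted p = 2.23e-06). TOP2A followed, at 9.90, 9.85 and 9.97 in 22RV1 and 8.91, 8.92 and 8.70 in LnCaP, 2.09-fold lower. None of these groups overlapped, and the second probe sets of ESPL1 and TOP2A gave -1.39 and -1.11.

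The genes called higher in untreated LnCaP were CENPI, by 0.89 ± 0.15 (adjusted p = 0.000284), and DLGAP5, by 0.43 ± 0.16 (adjusted p = 0.0464). DLGAP5 read 8.55, 8.54 and 8.90 in untreated 22RV1 and 8.80, 9.28 and 9.20 in untreated LnCaP, so its groups overlapped. The count of 2 was 1 under quantile normalization, after subtraction of array medians and with dim genes dropped. It was also 1 without 22RV1 untreated replicate 1 or 2, 22RV1 treated replicate 2, LnCaP untreated replicate 2 or 3, or any of the LnCaP treated arrays. CENPN was at 0.11 (adjusted p = 0.446) and did not pass. By part, all 3 cytokinesis genes and 7 of 9 condensin and chromosome genes were lower in untreated LnCaP, against 2 of 10 kinetochore genes, CENPF (-1.02) and ZWINT (-0.43). Of the 18 genes that fell in LnCaP after nicotine, 9 were among those lower in the untreated line. Among all 42 genes 21 were lower there, which is the same share. The comparison of the untreated lines also shares the untreated LnCaP arrays with the nicotine effect.

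**Figure D4:**
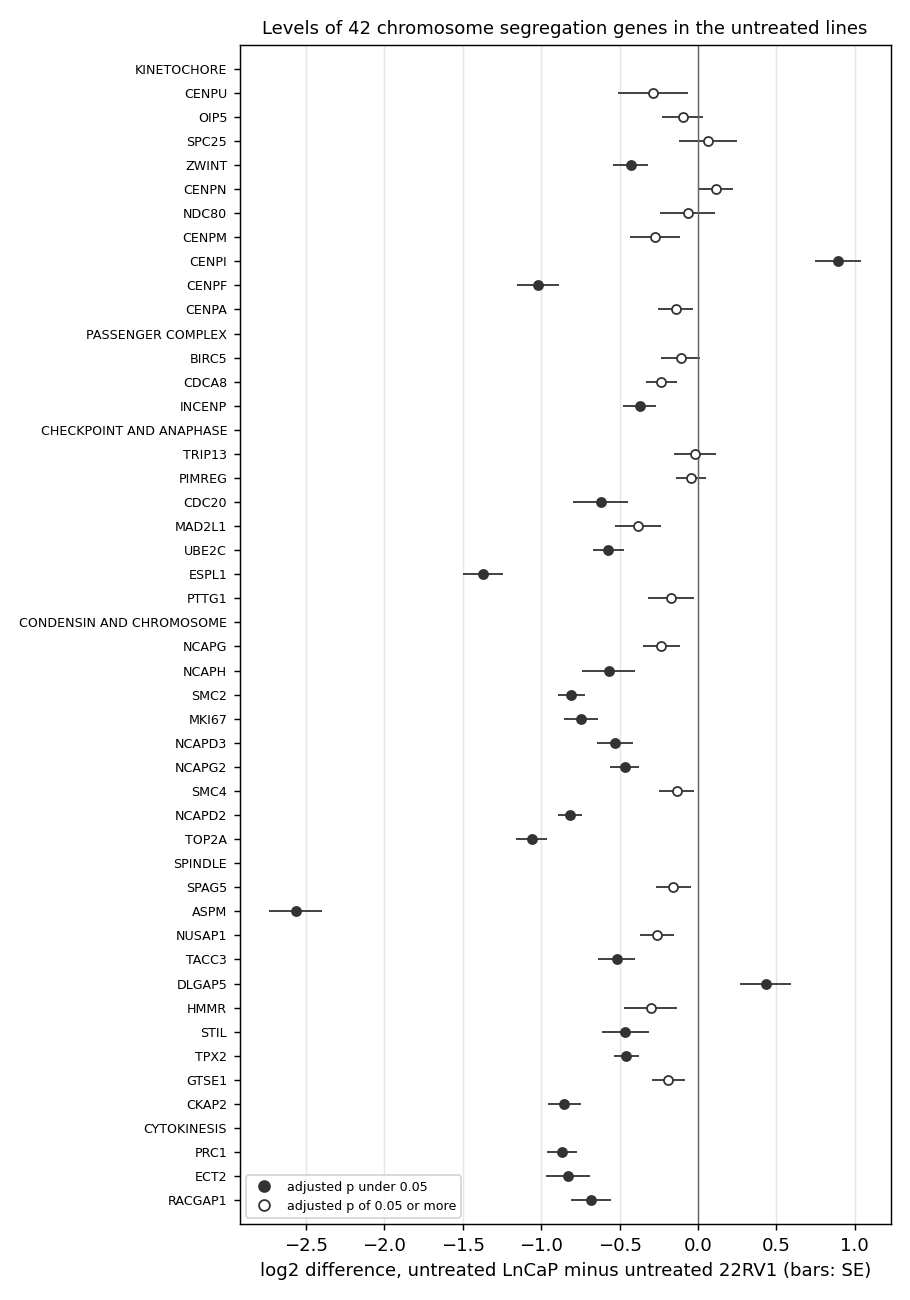
Log2 difference between untreated LnCaP and untreated 22RV1 (x axis, log2 units) with the SE of the limma fit for the 42 genes, grouped by function (n = 3 per line). Filled points passed an adjusted p of 0.05: 21 lie below 0, ASPM lowest at -2.56, and CENPI (0.89) and DLGAP5 (0.43) lie above 0.

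Other probe sets of the same genes mostly had the same sign. Of the 42 genes, 13 had several, and 19 of their 20 other probe sets had negative log2 fold changes in LnCaP, as did all 20 in 22RV1. The positive value, 0.03, was that of the dimmest CENPF probe set, which had a mean of 3.46, and its other dim probe set was at -0.45. A dim SMC4 probe set (mean 4.73) was at -0.08, whereas the brighter ones were at -0.56 and -0.50. For the untreated lines the probe sets agreed less: BIRC5 was at -0.11 by its brightest probe set and at -0.09 and -0.96 by the others, and the 4 of MKI67 ran from -1.37 to -0.35. CENPI, SPC25 and STIL had mean values below the median gene.

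Other genes of chromosome segregation had smaller log2 fold changes on the whole. Of 115 further genes listed for kinetochore, checkpoint, cohesin, spindle and cytokinesis, 82 were measured, with a median log2 fold change of -0.11 in LnCaP. Of the 82, 58 had negative log2 fold changes in LnCaP, against 50.4% of all genes. In that line 4 fell, against 0.585% of all genes called lower, and none rose. The calls were HJURP, the chaperone that deposits CENP-A, by 0.68 ± 0.11 (adjusted p = 0.0232), and DSN1, a subunit of the kinetochore platform under the NDC80 complex, by 0.69 ± 0.13 (adjusted p = 0.0412). The gamma-tubulin gene TUBG1 fell by 0.56 (adjusted p = 0.0265) and the spindle protein gene PSRC1 by 0.57 (adjusted p = 0.0381). With the block 13 of the 82 fell, against 3.28% of all genes. The lowest values of the 82 were those of CEP55, at -0.81, and ZWILCH, at -0.79. Without the block neither passed (adjusted p = 0.0973 and 0.051), and with it both did (adjusted p = 0.0111 and 0.00435). Of the 12 genes measured on a list of cohesin, its regulators and further condensin and topoisomerase genes, none passed with or without the block, with a median of -0.10 and a range from -0.35 to 0.20. The 19 further kinetochore genes had a median of -0.26 and the 25 spindle genes one of -0.13. The medians were -0.07 for the 14 checkpoint and anaphase genes and 0.04 for the 12 cytokinesis genes, which ran from -0.81 to 0.33. In 22RV1 none of the 82 passed, and their median was -0.03. No test was made between the lists, since the 42 genes had been listed with results of these data known.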

How the data were processed

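The authors deposited log2 expression values for 22277 probe sets on 12 arrays. Per the labels' protocols, TRIzol RNA was made into biotinylated cRNA for Affymetrix arrays; software and normalization were each not given in the sources used here. Values were used as deposited, with no filter, and arrays give no count-based depth, so their number limits the precision. The platform annotation gave 1 symbol to 19070 probe sets, several to 1043 and none to 2164; the probe set with the highest mean stood for each of 11963 genes. All 12 arrays were fitted with limma 3.58.1 (R 4.3.3) as 4 group means, two-sided, with Benjamini-Hochberg adjustment over all genes within a contrast, a call being an adjusted p under 0.05; ± is the moderated SE. The fit without the block was tested on simulated data with independent noise on each array. That test does not cover deviations shared by same-numbered arrays or the wider spread of the arrays numbered 3. Replicate numbers come from the labels: same-numbered untreated and treated arrays of a line deviated together (r from 0.225 to 0.640, other numbers -0.531 to 0.270), so a fit with 6 replicate blocks is given beside the main values. The LnCaP pairing of numbers 1 and 2 is less settled, since untreated replicate 2 had r = 0.270 with treated replicate 1. The genes, lists and tests were chosen with earlier results of these data known. Named with array values were called genes (up to 12 by smallest p in LnCaP) and the extremes of each part. So were the 3 largest differences each way between untreated lines and the 3 smallest p-values for the difference of effects. Called genes of the other lists were named by log2 fold change and adjusted p. Alternatives were the block, each array or the arrays numbered 3 left out, lines fitted alone, array weights, 2 scalings, a filter on dim genes, 2 probe set rules and an intensity trend; alternatives for pair and overlap counts were chosen after seeing the data.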

Additional observations from a re-analysis of the deposited data

Results flagged for a closer look

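CENPI was picked out because its nicotine effect differed between the lines. In the fit with the replicate block the log2 difference, LnCaP minus 22RV1, was -0.90 (limma adjusted p = 0.0426), with all 3 pairs of 22RV1 higher and all 3 of LnCaP lower after nicotine. The same difference did not pass without the block (adjusted p = 0.659), and a dimmer probe set of the gene gave -0.48.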

How the results depend on the processing

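The number of genes that fell in LnCaP, 18 of 42, was 37 with the replicate block, 10 after subtraction of array medians, 0 in a fit of LnCaP alone and between 0 and 19 when single arrays were left out. For the average of both lines, 15 became 36 with the replicate block, 28 with array weights, 3 after subtraction of array medians, 2 without the arrays numbered 3 and between 0 and 13 when single arrays were left out. The count of 0 for the difference of effects was 1 with the block. The 2 genes higher in untreated LnCaP were 1 under quantile normalization, after median subtraction or with dim genes dropped, and 1 to 2 when single arrays were left out. The cause was not tested. The CKAP2 value in LnCaP ran from -0.11 to 0.055 when single arrays were left out, turning to 0.005, 0.055, 0.037 and 0.017 without untreated replicate 1 or 2 or treated replicate 2 or 3, and to 0.009 under quantile normalization. The CENPI value in 22RV1 turned to -0.034 with the probe set of highest variance, and the DLGAP5 difference of effects, from -0.24 to 0.037 when single arrays were left out, turned to 0.037 without 22RV1 treated replicate 3. Counts of genes lower in all 3 pairs, or with no overlap, stayed within 1.5 times under the 3 alternatives tried.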
